A study of Homo sapiens with 4 samples.

Results

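The 41 genes described here are interferon-stimulated genes, a set of antiviral and regulatory genes that cells transcribe when they sense interferon or viral nucleic acid. They were taken by gene symbol from a table of 17791 genes, and 41 of 41 symbols were found. The levels came from RNA sequencing of 4 engineered prostate cancer tissues, in which cells were embedded in a gel of poly(ethylene glycol) coupled to fibrinogen and sampled at day 15. There was 1 library per group and no treatment in any of them: PC-3 monoculture, PC-3 coculture, LNCaP monoculture and LNCaP coculture. PC-3 is a human prostate cancer line labelled as a castration-resistant model (CRPC-ne, a suffix the labels do not explain). LNCaP is a human prostate cancer line labelled as an androgen-dependent model (ADPC). In either coculture the cancer cells were mixed 5 to 1 with fibroblasts of the immortalised human line BJ-5ta. Each kind of cancer was therefore represented by a single line, and the fibroblasts by a single immortalised line. The growth protocol describes the PC-3 tissues and their medium only, so the medium of the LNCaP tissues is unknown, as is the amount of crosslinker in each library's gel. RNA came from more than 2 tissues per group, but whether it was pooled is not stated, and a spread between tissues could not be seen.

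Interferons are secreted proteins that bind receptors at the cell surface, where the kinases JAK1 and TYK2 activate transcription factors of the STAT family. With IRF9 these form a complex that binds the interferon-stimulated response element in promoters. The genes it drives encode sensors of viral RNA, proteins that block viral entry, translation and replication, and regulators that feed back on the same pathway. Many of them keep a basal level without added interferon, and cancer lines differ widely in that basal level.

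The response element is the sequence feature that the set is known for, so its core was searched in the promoter windows of RefSeq on GRCh38.p14, which run from 250 bases before the start of transcription to 50 after it. The core searched was TTTC, any 2 bases and TTTC again, which reads GAAA, any 2 bases and GAAA on the other strand, and both strands were searched. Windows were given for 33 of the 41 genes, and 21 of these 33 (63.6%) held at least 1 match, against 1255 of all 35116 windows (3.57%). The windows held 39 matches in all, 14 genes had more than 1, and the centre of the median match lay 90 bases before the start (range of positions -216 to 16). Overlapping matches were counted separately, as in BST2, ISG15, IFIH1 and HERC5. The end of the window matched a sense transcript of the gene for 27 of the 33. For DDX60, ISG20 and IFI27 the window lay inside the gene's listed span. The core of the gamma-activated site, TTCNNNGAA, which reads the same on both strands and can share bases with the other core, was in 9 of 33 windows (27.3%) against 7.66% of all windows. Promoter windows were not given for OAS2, OASL, IFIT2, MX2, TRIM22, IFITM2, USP18 and IRF7. The 6 stretches below show the match in capitals with its flanks, for the gene with the highest level per length in PC-3 (ISG15), the highest in LNCaP (IFITM3), a match in the opposite orientation (IFIT1), a gene with a near-equal level in the 2 LNCaP libraries (OAS3), a gene among the largest differences between the lines (BST2) and a promoter with a repeated match (IFI44L).
ISG15, chr1:1013370-1013419, plus strand: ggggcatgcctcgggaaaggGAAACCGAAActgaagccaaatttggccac
IFITM3, chr11:320866-320915, minus strand: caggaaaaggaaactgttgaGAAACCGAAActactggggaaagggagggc
IFIT1, chr10:89392487-89392536, plus strand: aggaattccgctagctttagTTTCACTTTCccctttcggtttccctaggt
OAS3, chr12:112938311-112938360, plus strand: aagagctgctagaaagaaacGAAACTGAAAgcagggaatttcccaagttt
BST2, chr19:17405731-17405780, minus strand: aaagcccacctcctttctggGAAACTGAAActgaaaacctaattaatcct
IFI44L, chr1:78620264-78620313, plus strand: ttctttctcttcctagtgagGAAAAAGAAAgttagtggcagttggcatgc
ISG15 and IFITM3 carried the same 10 bases in their matches, as did OAS3 and BST2. The stretch shown for IFI44L occurred again, letter for letter, at chr1:78620355-78620404.

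**Figure D1:**
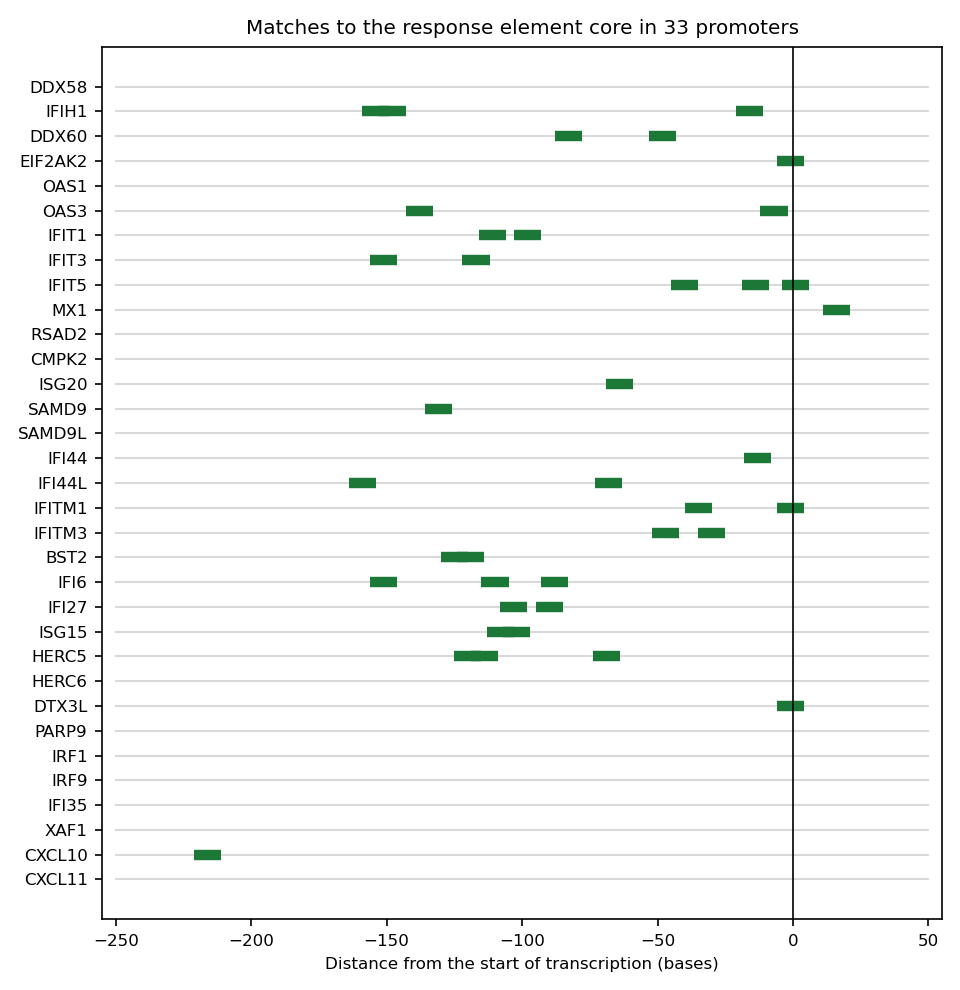
Position of each match to the response element core (green bars, 10 bases long) in the promoter windows of 33 interferon-stimulated genes, with distance from the start of transcription in bases on the horizontal axis. The 39 matches lie between 216 bases before and 16 bases after the start, and 12 genes have none.

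A match is a description of the letters and not of binding, and a window without one says only that these letters are not in it. The 12 windows without the core were those of DDX58, OAS1, RSAD2, CMPK2, SAMD9L, HERC6, PARP9, IRF1, IRF9, IFI35, XAF1 and CXCL11. The median log2 fold, coculture over monoculture, was 0.42 for genes with the core and 0.44 for genes without it in PC-3, and 0.59 against 0.66 in LNCaP. Between the monocultures, LNCaP over PC-3, the medians were -5.07 and -4.06.

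Many of the genes are neighbours. In RefSeq, 24 of the 41 lay within 200 kb of another, in 14 adjoining pairs with no other gene of the table between them. These were the OAS genes (OAS1, chr12:112906962-112933219; OAS3, chr12:112938474-112973251; OAS2, chr12:112978519-113011723), the IFIT genes on chromosome 10, the IFITM genes on chromosome 11, MX2 with MX1, IFI44L with IFI44, SAMD9 with SAMD9L, HERC6 with HERC5, CXCL10 with CXCL11, CMPK2 with RSAD2, and PARP9 with DTX3L. CMPK2 and RSAD2 share 751 bases on opposite strands, and PARP9 and DTX3L share 447. The library kit does not mark the strand, so reads from those shared stretches cannot be assigned to either gene. Reads of IFITM1, IFITM2 and IFITM3, and those of USP18, may also be split with near-identical copies.

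The libraries were of like depth, with totals from 15520243 to 15865690 estimated counts. Line and fibroblast markers followed the labels: KLK3 had 60226 and 74134 counts in the LNCaP libraries and 0 in either PC-3 library, and COL1A2, a fibroblast collagen, had 1 and 2026 counts without and with fibroblasts in PC-3 and 0 and 3577 in LNCaP. Levels are counts per 1000000 counts (CPM) after TMM scaling. Folds are ratios of scaled counts, with a 95% interval that covers counting error only. A gene counted as measured in a comparison where either library had at least 1 CPM of it. With 1 library per group no test of a condition was possible, and every difference below compares libraries.

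PC-3 tissues had these transcripts at high levels and LNCaP tissues at low ones. In the PC-3 monoculture 38 of 41 genes had at least 10 CPM and 20 had at least 100 CPM, where 58.9% and 14.2% of all genes did. In the LNCaP monoculture 12 had at least 10 CPM and none had 100 CPM, where 57.7% and 13.2% of all genes did. The median gene had 98.9 CPM in the PC-3 monoculture, 131 in the PC-3 coculture, 4.37 in the LNCaP monoculture and 7.28 in the LNCaP coculture, while the median of all genes lay between 16.9 and 18.3 CPM. On the scale of CPM per kb of transcript, the median gene of the set stood at the 86.5th percentile of all genes in the PC-3 monoculture and at the 32.5th in the LNCaP monoculture. Together the 41 genes took 0.863% and 1.11% of counts in the PC-3 monoculture and coculture and 0.0502% and 0.0651% in the LNCaP pair. Because these are bulk tissues, fewer cells of a type and less RNA per cell cannot be told apart, and a read cannot be traced to a cancer cell or a fibroblast.

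**Figure D2:**
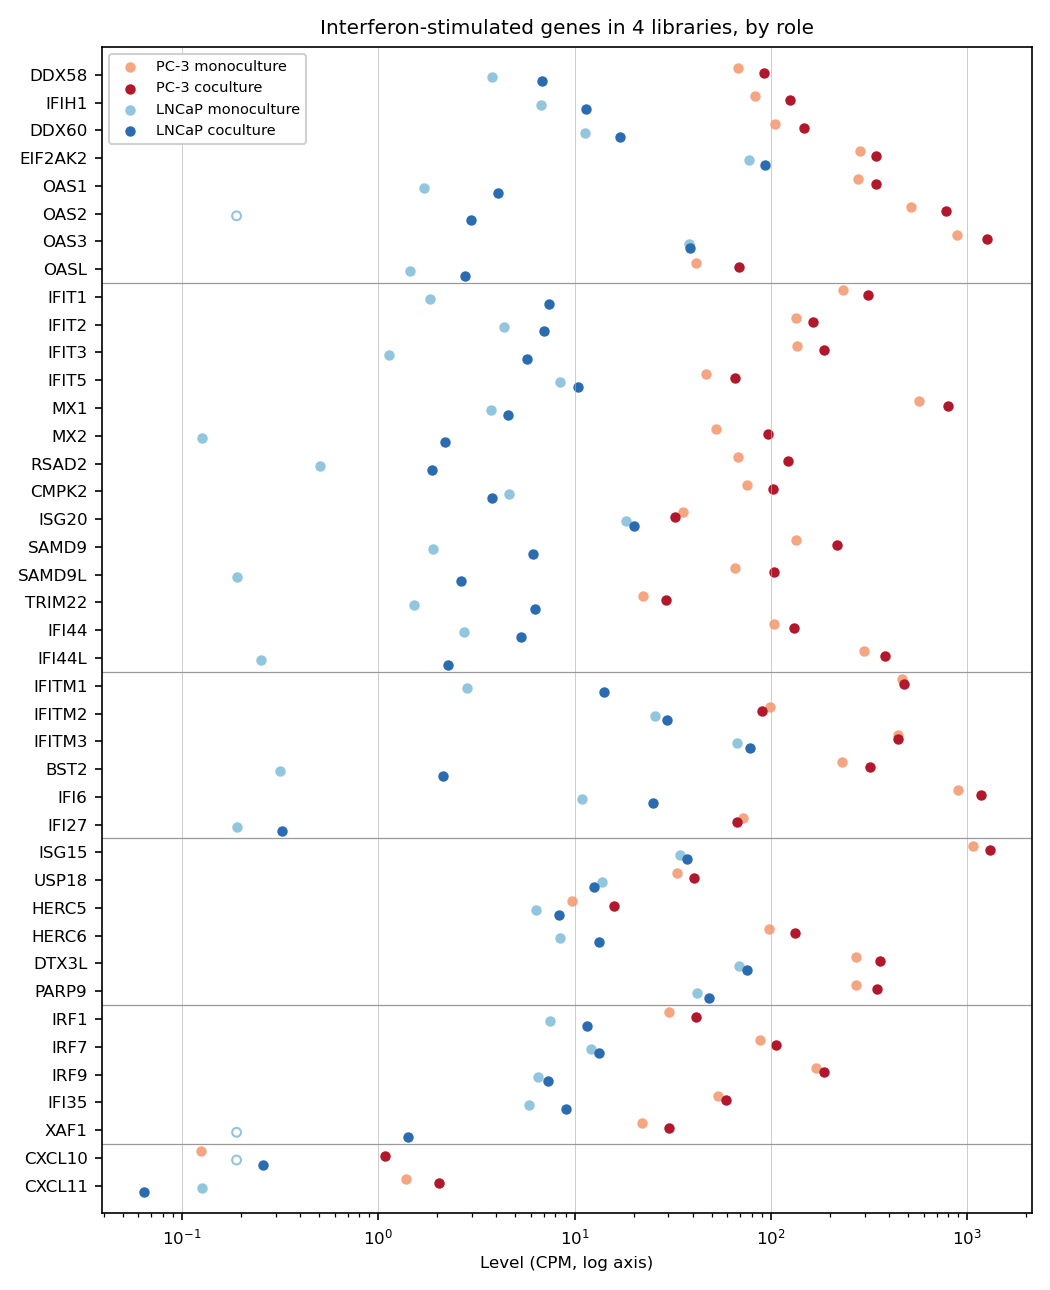
Level of each of the 41 genes in the 4 libraries, in CPM on a log axis, with genes grouped by role from RNA sensors at the top to chemokines at the bottom; open circles mark a count of 0 drawn at the limit of 3 counts. Both PC-3 points (orange, red) lie to the right of both LNCaP points (light and dark blue) in every row except CXCL10, and the 3 open circles are OAS2, XAF1 and CXCL10 in the LNCaP monoculture.

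Between the monocultures, 40 genes were measured and 38 of them were at least 2-fold lower in LNCaP, against 23.6% of all genes. The other two, HERC5 and ISG20, were also lower, so that 40 of 40 were at least 1.3-fold lower (36.9% of all genes). None had a log2 fold above 0 (51.3% of all genes), was 1.3-fold higher (39.0%) or was 2-fold higher (22.1%). The median log2 fold was -4.60 beside 0.04 over all genes. The median ratio of the 40 genes was 24.6-fold lower, with genes at 0 counts in LNCaP ranked as farthest apart. In coculture 39 of 41 genes were at least 2-fold lower in LNCaP (23.6% of all genes) and 41 were at least 1.3-fold lower (37.8%), with a median log2 fold of -4.54. None was above 0 (50.2% of all genes), 1.3-fold higher (37.7%) or 2-fold higher (20.7%).

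Most of the genes had higher levels with fibroblasts in either line, by small folds in PC-3 and by folds that varied more in LNCaP. With fibroblasts in PC-3, 24 of 41 genes were at least 1.3-fold higher (9.09% of all genes), 1 was at least 2-fold higher (2.23%), none was 1.3-fold lower (9.37%) or 2-fold lower (1.01%), and 38 were above 0 (50.8%). The counting interval lay above 1 for 34 genes, held 1 for 6 and lay below 1 for 1, IFITM2. Over all 14417 genes measured in PC-3 it lay above 1 for 3094 and below 1 for 2945. With fibroblasts in LNCaP, 24 of 38 measured genes were at least 1.3-fold higher (13.7% of all genes), 14 were at least 2-fold higher (4.56%), none was 1.3-fold lower (16.2%) or 2-fold lower (3.03%), and 36 were above 0 (50.1%). Only 31 of the 41 genes had at least 1 CPM in the LNCaP monoculture. OAS2, MX2, RSAD2, SAMD9L, IFI44L, BST2 and XAF1 counted as measured only through the coculture, and all of them are among the 14. In LNCaP the interval lay above 1 for 29 genes, held 1 for 9 and lay below 1 for none. Over all 14119 genes measured in LNCaP it lay above 1 for 3924 and below 1 for 3643. The median log2 fold was 0.43 in PC-3 and 0.66 in LNCaP, beside 0.00 over all genes in both.

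**Figure D3:**
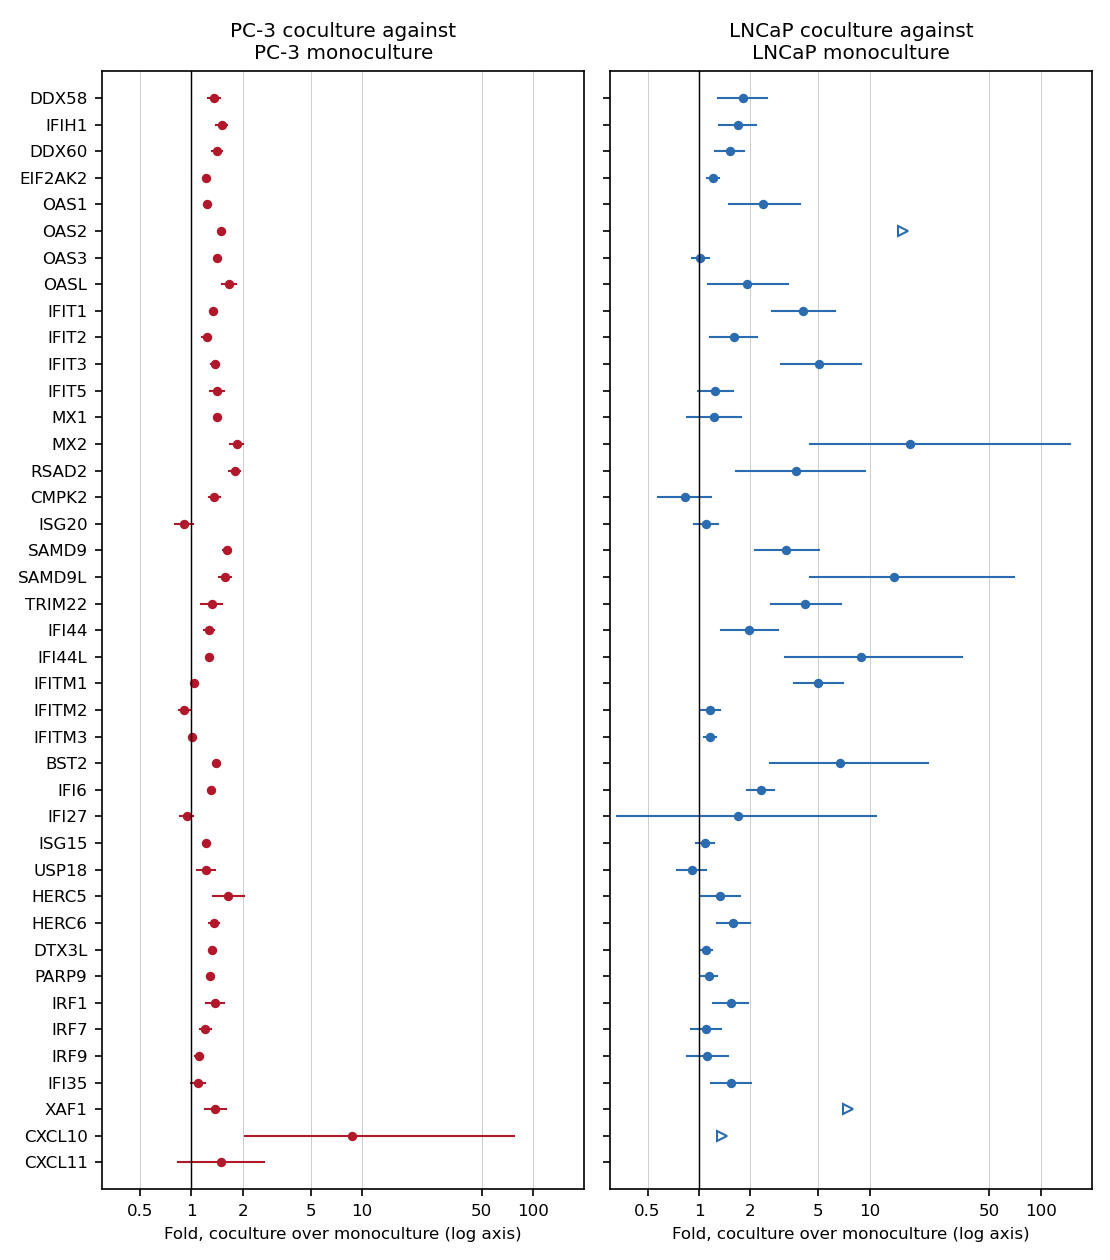
Fold of coculture over monoculture for each gene in PC-3 (left) and LNCaP (right) on log axes, with 95% counting intervals as lines; open triangles are lower limits where the monoculture had 0 counts, and genes at 3 counts or fewer in both libraries are not drawn. PC-3 folds lie between 0.905 and 1.84 apart from CXCL10 at 8.66, and LNCaP folds reach 17.3 for MX2.

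Among the 38 genes measured in both cocultures, 17 were at least 1.3-fold higher in both, against 2.68% of all genes. The 2 coculture comparisons have no library in common but share the fibroblast line. The 17 were the sensors DDX58, IFIH1, DDX60, OAS2 and OASL, the effectors IFIT1, IFIT3, MX2, RSAD2, SAMD9, SAMD9L and TRIM22, and BST2, HERC5, HERC6, IRF1 and XAF1. The log2 fold was above 0 in both for 34 of 38, against 29.3% of all genes. Of the 17, OAS2, MX2, RSAD2, SAMD9L, BST2 and XAF1 were below 1 CPM in the LNCaP monoculture. They counted as measured in LNCaP only through the coculture, where they were higher.

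The summed level of fibroblast markers was also higher in the cocultures, to which fibroblasts had been added. Of 24 fibroblast markers, 7 stood at 0 counts in PC-3 without fibroblasts and 0 did with them, and in LNCaP 8 and 1 did. Their summed level was 2547 CPM in the PC-3 monoculture and 3589 CPM in its coculture, and 434 and 2037 CPM in the LNCaP pair. Over the 8 markers that had 3 counts or fewer in both monocultures, chosen on these values, the sum went from 0.188 to 284 CPM in PC-3 and from 0.507 to 533 CPM in LNCaP. Among immune cell markers 5 of 14 were in the table, with sums of 43.9, 59.3, 5.38 and 16.9 CPM in the PC-3 monoculture, PC-3 coculture, LNCaP monoculture and LNCaP coculture, most of it CD68. What part the fibroblasts' own RNA had in the coculture levels was not tested.

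Summed over the 41 genes, the level was 8576 CPM in the PC-3 monoculture and 11100 CPM in the PC-3 coculture, and 504 and 652 CPM in the LNCaP pair. The sum, which the most abundant genes dominate, was thus 1.29-fold higher in either coculture, and the difference was 2525 CPM in PC-3 and 147 CPM in LNCaP. The difference in CPM was larger in PC-3 for 37 of 41 genes, with medians of 30.4 CPM in PC-3 and 2.59 CPM in LNCaP. The exceptions were IFITM2, IFITM3, ISG20 and IFI27. These are absolute differences, and the median monoculture level was 98.9 CPM in PC-3 and 4.37 CPM in LNCaP. The share of all genes with a larger difference in PC-3 was not computed, so the 37 cannot be set against a background. In PC-3 the 5 largest differences were those of OAS3 (364 CPM), IFI6 (267 CPM), OAS2 (258 CPM), ISG15 (235 CPM) and MX1 (234 CPM). In LNCaP the same 5 genes differed by 0.625, 14.2, 2.97, 3.01 and 0.841 CPM.

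**Figure D4:**
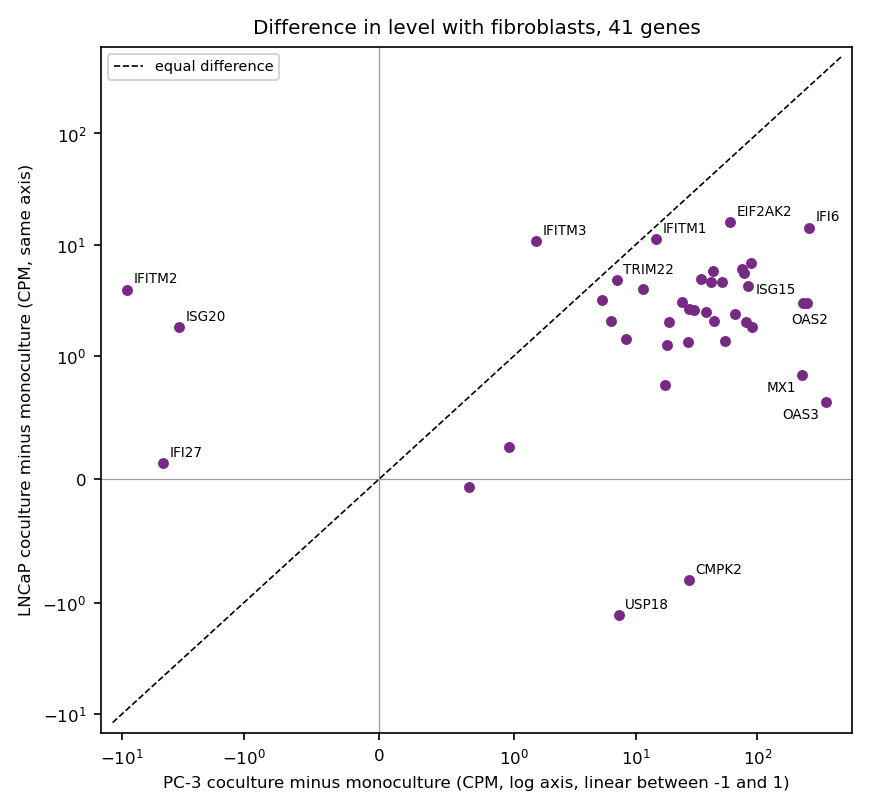
Difference in level between coculture and monoculture for each of the 41 genes, PC-3 on the horizontal and LNCaP on the vertical axis, in CPM on axes that are logarithmic beyond 1 and linear between -1 and 1; the dashed line marks equal differences. Below the line lie 37 genes, with OAS3 farthest right at 364 CPM, and 4 lie above it.

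The sensors and enzymes of double-stranded RNA were higher in the PC-3 coculture in 8 of 8 cases (50.8% of all genes), with a median log2 fold of 0.49. DDX58 and IFIH1 encode the cytosolic RNA sensors RIG-I and MDA5. Here and below counts are given for monoculture and then coculture. DDX58 had 1090 and 1444 counts in PC-3 and 60 and 106 in LNCaP, which made it 1.35-fold (1.25 to 1.46) and 1.80-fold (1.3 to 2.51) higher with fibroblasts. IFIH1 had 1328 and 1960 counts in PC-3 and 107 and 177 in LNCaP, giving folds of 1.50 (1.40 to 1.61) and 1.68 (1.32 to 2.16). Both sensors were thus higher in each coculture, at levels far apart between the lines. EIF2AK2, the kinase PKR that halts translation on double-stranded RNA, had 4523 and 5382 counts in PC-3 and 1227 and 1453 in LNCaP. It differed least between the monocultures in this group, 3.65-fold lower (3.42 to 3.89) in LNCaP, and its fold with fibroblasts was 1.21 in either line. DDX60, a helicase that aids RNA sensing, had 1677 and 2321 counts in PC-3 and 178 and 265 in LNCaP.

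The OAS enzymes make the short oligoadenylates that activate RNase L, and they differed from one another in LNCaP. OAS2 had 8285 and 12181 counts in PC-3 without and with fibroblasts, and 0 and 46 in LNCaP. It was the gene farthest apart between the monocultures, at least 2732-fold lower in LNCaP against a limit of 3 counts, and at least 15.6-fold higher in the LNCaP coculture than in its monoculture. OAS3 had 14240 and 19689 counts in PC-3 but 605 and 604 in LNCaP, so a 1.41-fold difference (1.38 to 1.44) in PC-3 stood beside a fold of 1.02 (0.906 to 1.14) in LNCaP. OAS1 had 4437 and 5379 counts in PC-3 and 27 and 63 in LNCaP, where it was 2.38-fold higher (1.49 to 3.88) in the coculture. OASL, a related protein without the enzyme's activity, had 661 and 1074 counts in PC-3 and 23 and 43 in LNCaP. It was 1.66-fold (1.50 to 1.83) and 1.90-fold (1.12 to 3.31) higher in the cocultures. On the scale of CPM per kb, OAS1, OAS2 and OAS3 took 36.3%, 31.6% and 29.2% of the family's level in the PC-3 monoculture, whereas OAS3 alone took 79.6% in the LNCaP monoculture and 58.7% in the LNCaP coculture.

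Among the role groups as measured, the intracellular effectors had the highest median fold in LNCaP. MX2, RSAD2, SAMD9L and IFI44L counted as measured there only through the coculture, where they were higher. They raise the group's median, and the order of the groups without such genes was not computed. The effectors' median log2 fold was 0.45 in PC-3, with 13 of 14 genes above 0 (50.8% of all genes). In LNCaP it was 1.64, also with 13 of 14 above 0 (50.1% of all genes). IFIT proteins bind viral RNA or hold back its translation. IFIT1 had 3728 and 4884 counts in PC-3 and 29 and 115 in LNCaP, with coculture folds of 1.33 (1.28 to 1.39) and 4.04 (2.67 to 6.29). IFIT3 had 2166 and 2923 counts in PC-3 and 18 and 89 in LNCaP, with folds of 1.37 (1.3 to 1.45) and 5.03 (3.01 to 8.88). IFIT5 did not share this, with 746 and 1029 counts in PC-3 and 133 and 162 in LNCaP and a LNCaP fold of 1.24 whose interval (0.980 to 1.57) held 1. In CPM per kb and without fibroblasts, IFIT5 made up 5.14% of the family's level in PC-3 but 44.5% in LNCaP.

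MX1 and MX2 encode dynamin-like GTPases that trap viral nucleoproteins and capsids. MX1 had 9091 and 12584 counts in PC-3 and 59 and 71 in LNCaP. It was 1.41-fold higher (1.37 to 1.45) in the PC-3 coculture, while the LNCaP fold of 1.23 had an interval (0.855 to 1.76) that held 1. MX2 had 840 and 1517 counts in PC-3 and 2 and 34 in LNCaP. In PC-3 its fold of 1.84 (1.69 to 2.00) was the largest among genes with at least 50 counts, and in LNCaP the ratio was 17.3, with a wide interval (4.44 to 149) that reflects the 2 counts in the monoculture.

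RSAD2 encodes viperin, which makes a nucleotide that stops viral polymerases, and CMPK2 is the nucleotide kinase encoded beside it. RSAD2 had 1086 and 1915 counts in PC-3 and 8 and 29 in LNCaP, 1.80-fold (1.67 to 1.94) and 3.69-fold (1.65 to 9.34) higher in the cocultures. CMPK2 had 1204 and 1611 counts in PC-3, where it was 1.36-fold higher (1.26 to 1.47) in the coculture, but 73 and 59 counts in LNCaP, a fold of 0.823 (0.574 to 1.18). CMPK2 had the lowest difference of log2 folds, LNCaP minus PC-3, at -0.72 (-1.22 to -0.22).

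SAMD9 and SAMD9L, neighbours on chromosome 7 that restrict poxviruses, were low in the LNCaP monoculture with 30 and 3 counts and had 95 and 41 counts in the LNCaP coculture. In PC-3 SAMD9 had 2149 and 3418 counts and SAMD9L had 1052 and 1629, folds of 1.62 and 1.58. The SAMD9L ratio in LNCaP was 13.9 (4.44 to 70.2). TRIM22, an antiviral ubiquitin ligase, had 356 and 459 counts in PC-3 and 24 and 98 in LNCaP, with folds of 1.31 and 4.16 (2.64 to 6.79). All 3 genes were higher in both cocultures, on few counts in LNCaP.

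IFI44L, a GTPase-like protein induced by type I interferon, had 4783 and 5949 counts in PC-3 and 4 and 35 in LNCaP. It was 1183-fold lower in the LNCaP monoculture than in the PC-3 one (interval 462 to 4343), and 8.91-fold higher (3.18 to 34.5) in the LNCaP coculture than in its monoculture. Its neighbour IFI44 had 1663 and 2060 counts in PC-3 and 43 and 83 in LNCaP. IFI44L was, after OAS2, the gene of the set farthest apart between the monocultures. ISG20, an exonuclease that degrades RNA, differed least between the lines among the effectors, with 572 and 508 counts in PC-3 and 290 and 313 in LNCaP. Its fold was 0.905 (0.801 to 1.02) in PC-3 and 1.1 (0.934 to 1.29) in LNCaP, and both intervals held 1. IFIT2, a further member of the IFIT family, had 2145 and 2582 counts in PC-3 and 69 and 108 in LNCaP, with folds of 1.23 and 1.59.

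The membrane proteins were the group with the smallest median fold in PC-3, at a log2 fold of 0.02. There 4 of 6 genes were above 0, a share near the 50.8% of all genes. In LNCaP 5 of 5 measured genes were above 0 (50.1% of all genes), with a median of 1.19. BST2 counted as measured in LNCaP only through the coculture, where it was higher. IFITM proteins sit in cell and endosomal membranes and block viral fusion. IFITM1 had 7396 and 7490 counts in PC-3 and 45 and 219 in LNCaP. The fold was 1.03 (0.999 to 1.07) in PC-3 and 4.95 (3.58 to 6.99) in LNCaP. IFITM3 had 7084 and 6978 counts in PC-3 and 1061 and 1210 in LNCaP, and IFITM2 had 1578 and 1407 in PC-3 and 405 and 459 in LNCaP. IFITM1 thus stood near IFITM3 in PC-3 but far below it in LNCaP. In CPM per kb, IFITM1 took 45.1% and 46.2% of the family's level in the PC-3 libraries, 2.89% in the LNCaP monoculture and 11.3% in the LNCaP coculture, while IFITM3 took 72.2% and 66.0% in LNCaP.

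BST2, or tetherin, which holds budding virus at the cell surface, had 3674 and 5033 counts in PC-3 and 5 and 33 in LNCaP. It was 727-fold lower (311 to 2240) in the LNCaP monoculture than in the PC-3 one, and 1.40-fold (1.34 to 1.46) and 6.72-fold (2.61 to 22.0) higher in the cocultures. IFI6, a mitochondrial and endoplasmic reticulum protein that restrains apoptosis, had 14401 and 18327 counts in PC-3 and 173 and 390 in LNCaP, with folds of 1.3 (1.27 to 1.33) and 2.29 (1.91 to 2.76). IFI6 was the second most abundant gene of the set per length in PC-3, at 1098 CPM per kb in the monoculture. IFI27, a related protein, had 1146 and 1053 counts in PC-3 and 3 and 5 in LNCaP, too few there for a fold to be read.

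ISG15, a ubiquitin-like modifier that is attached to other proteins, and the enzymes around it had smaller folds in LNCaP than the effectors did. The group's median log2 fold was 0.38 in PC-3, with 6 of 6 above 0 (50.8% of all genes). In LNCaP it was 0.16, with 5 of 6 above 0 (50.1% of all genes). ISG15 had 17033 and 20410 counts in PC-3 and 544 and 581 in LNCaP. Per length it was the highest of the 41 genes in PC-3, at 1501 and 1832 CPM per kb, and second to IFITM3 in LNCaP, at 48.5 against 83.2 CPM per kb in the monoculture. The fold with fibroblasts was 1.22 (1.20 to 1.25) in PC-3 and 1.09 (0.966 to 1.22) in LNCaP.

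USP18, the protease that removes ISG15 and damps receptor signalling, had 530 and 634 counts in PC-3 and 219 and 195 in LNCaP. HERC5, the main ligase that attaches ISG15, had 155 and 250 counts in PC-3 and 100 and 130 in LNCaP, and was the gene nearest to equal between the monocultures, 1.53-fold lower (1.18 to 1.99) in LNCaP. The writer and eraser of ISG15 were thus among the 3 genes that differed least between the monocultures, with ISG20 the other at 1.95-fold. HERC6, the neighbour of HERC5, had 1560 and 2069 counts in PC-3 and 133 and 207 in LNCaP, with folds of 1.35 and 1.58. DTX3L and PARP9, which act as a complex in DNA repair and interferon signalling, are encoded side by side. DTX3L had 4345 and 5657 counts in PC-3 and 1088 and 1174 in LNCaP, and PARP9 had 4354 and 5455 in PC-3 and 667 and 748 in LNCaP. Their folds were 1.33 and 1.28 in PC-3 and 1.1 and 1.14 in LNCaP.

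The transcription factors and other regulators were above 0 in 5 of 5 cases in either coculture (50.8% of all genes in PC-3 and 50.1% in LNCaP). Their median log2 folds were 0.27 in PC-3 and 0.61 in LNCaP, where XAF1 counted as measured only through the coculture. IRF9, the DNA-binding subunit of that complex, had 2700 and 2924 counts in PC-3 and 103 and 113 in LNCaP, 25.9-fold lower (21.3 to 31.9) in the LNCaP monoculture. IRF7, which amplifies interferon production, had 1401 and 1658 counts in PC-3 and 191 and 207 in LNCaP. IRF1, which binds the same element, had 484 and 654 counts in PC-3 and 119 and 179 in LNCaP. Of the 3 factors, IRF1 had the larger folds with fibroblasts, 1.38 (1.22 to 1.55) and 1.53 (1.21 to 1.95), while IRF9 stood at 1.1 in PC-3 and 1.12 in LNCaP. XAF1, a pro-apoptotic protein, had 352 and 477 counts in PC-3 and 0 and 22 in LNCaP, at least 7.47-fold higher in the LNCaP coculture. IFI35, which partners with NMI, had 857 and 924 counts in PC-3 and 93 and 141 in LNCaP.

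The chemokines CXCL10 and CXCL11, which draw T cells through CXCR3, were the lowest genes of the set in PC-3. CXCL10 had 2 and 17 counts in PC-3 and 0 and 4 in LNCaP. The PC-3 ratio of 8.66 (2.06 to 77.3) was the only fold above 2 in that comparison. CXCL10 counted as measured in PC-3 only through the coculture, where it was higher. CXCL11 had 22 and 32 counts in PC-3 and 2 and 1 in LNCaP. Neither chemokine was measured at 1 CPM in LNCaP.

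The difference between the coculture folds, LNCaP minus PC-3 on the log2 scale, could be computed for 38 genes. It was at least 1 for 10 of them, against 4.1% of all genes, and at most -1 for none, against 3.57%. The 10 were OAS2 (4.01), XAF1 (3.13), SAMD9L (2.47), MX2 (2.31), IFI44L (2.30), IFITM1 (2.21), BST2 (1.86), IFIT3 (1.75), TRIM22 (1.58) and IFIT1 (1.52). All 10 had 45 counts or fewer in the LNCaP monoculture, where OAS2, XAF1, SAMD9L, MX2, IFI44L and BST2 were below 1 CPM. The difference was above 0 for 27 genes (52.4% of all genes), with a median of 0.31. Below 0 and with counting intervals clear of 0 were CMPK2, OAS3 (-0.47), USP18 (-0.42), DTX3L (-0.27) and PARP9 (-0.16).

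Genes with short transcripts had a lower median fold in PC-3, but they are the membrane group and ISG15. Length therefore cannot be told apart from role or family. Their PC-3 folds were 0.908 to 1.03 for IFITM1, IFITM2, IFITM3 and IFI27, and 1.22 to 1.40 for ISG15, IFI6 and BST2. The 7 genes with transcripts under 1.1 kb, IFITM1, IFITM2, IFITM3, BST2, IFI6, IFI27 and ISG15, had a median log2 fold of 0.04 in PC-3, beside 0.45 for the 34 longer ones. After subtracting the trend of all genes with transcript length and GC content, the medians were 0.27 and 0.45. In LNCaP the medians were 0.70 and 0.66 before and 1.06 and 0.61 after. For the membrane group the median went from 0.02 to 0.24 in PC-3 and from 1.19 to 1.52 in LNCaP, and for ISG15 in LNCaP the log2 fold went from 0.12 to 0.60. After the same step IFITM2 and IFI27 were above 0 in PC-3, at 0.06 and 0.14, and OAS3 was below 0 in LNCaP, at -0.01.

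Upstream of these genes, ligand transcripts were few, and the median log2 fold of 6 receptor chains between the monocultures, LNCaP over PC-3, was -0.75. Of 22 interferon ligands 4 were in the table. IFNE, an interferon of epithelia, had 14 and 10 counts in PC-3 and 0 in either LNCaP library. IFNB1 had 1 and 3 counts in PC-3 and 0 in LNCaP, and IFNL1 and IFNL2 had 0 in all 4 libraries. A count of 0 allows up to 0.188 to 0.193 CPM.

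Of the receptor chains for type I interferon, IFNAR1 had 2022 and 2149 counts in PC-3 and 1474 and 1787 in LNCaP, and IFNAR2 had 385 and 346 in PC-3 and 421 and 416 in LNCaP. The chains for interferon gamma were IFNGR1, with 333 and 332 counts in PC-3 and 424 and 453 in LNCaP, and IFNGR2, with 2864 and 2474 in PC-3 and 626 and 750 in LNCaP. IFNAR2 and IFNGR1 had somewhat more counts in LNCaP than in PC-3, for IFNAR2 with an interval between the monocultures (0.960 to 1.27) that held 1, and IFNGR2 was 4.53-fold lower (4.15 to 4.94) in the LNCaP monoculture. IFNLR1, the chain specific to interferon lambda, had 166 and 174 counts in PC-3 and 0 and 1 in LNCaP. Its partner IL10RB had 623 and 780 counts in PC-3 and 296 and 383 in LNCaP. With fibroblasts, 0 of 6 receptor chains in PC-3 and 1 of 5 in LNCaP, IL10RB at 1.32-fold (1.13 to 1.54), were at least 1.3-fold higher, and none was 1.3-fold lower. Counts this small cannot be told from the shares of all genes, 9.09% and 13.7% higher.

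**Figure D5:**
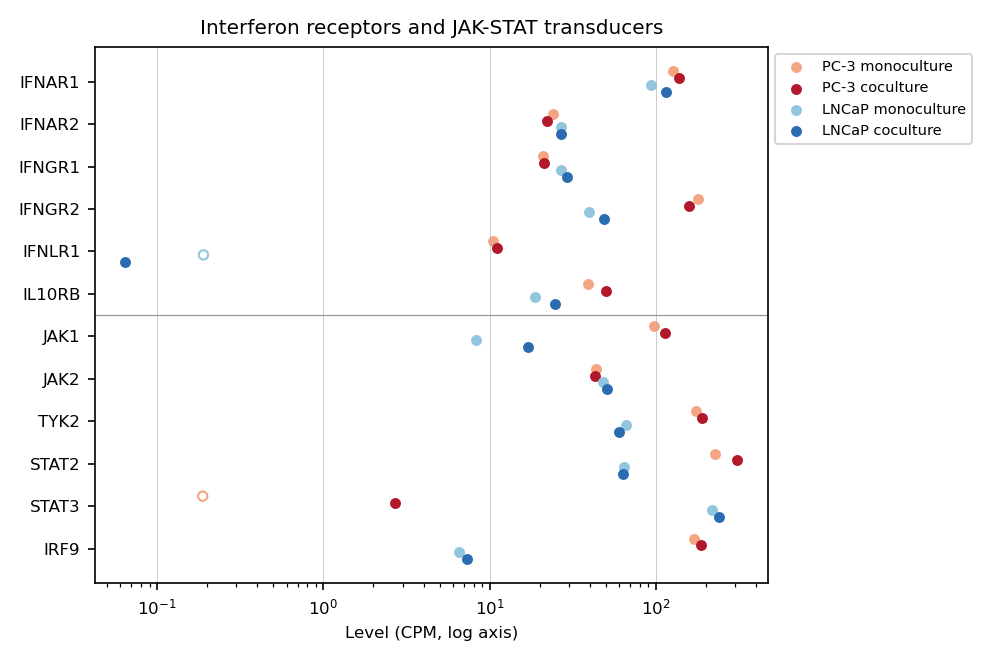
Level of 6 interferon receptor chains and 6 transducers in the 4 libraries, in CPM on a log axis; open circles mark a count of 0 drawn at the limit of 3 counts. JAK1 and IRF9 have LNCaP points far to the left of PC-3 points, IFNAR2, IFNGR1 and JAK2 points lie close together, and STAT3 shows the reverse order.

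Among the transducers, the kinase JAK1 had 1560 and 1783 counts in PC-3 and 130 and 263 in LNCaP, 11.9-fold lower (9.92 to 14.3) in the LNCaP monoculture and 2.06-fold higher (1.66 to 2.56) in the LNCaP coculture. TYK2 had 2757 and 2957 counts in PC-3 and 1040 and 928 in LNCaP. JAK2, which serves interferon gamma, had 695 and 669 counts in PC-3 and 758 and 788 in LNCaP. JAK1 was thus the kinase that was far apart between the lines, and JAK2 was level. STAT2 had 3607 and 4824 counts in PC-3 and 1012 and 979 in LNCaP, 1.36-fold higher (1.3 to 1.42) in PC-3 and at a fold of 0.985 (0.901 to 1.08) in LNCaP. STAT3, which serves other cytokines as well, had 0 and 42 counts in PC-3 and 3422 and 3689 in LNCaP.

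A second list of interferon-stimulated genes was drawn up with earlier results of these libraries known. Of 29 measured in the PC-3 comparison 28 were above 0 (50.8% of all genes) and 13 were at least 1.3-fold higher (9.09%), with a median log2 fold of 0.33, and none was 1.3-fold lower (9.37%). LAMP3, a lysosomal protein, had 619 and 1002 counts in PC-3, a fold of 1.65 (1.49 to 1.83), and 2 and 3 in LNCaP. In the LNCaP comparison 19 of 25 were above 0 (50.1% of all genes), 10 were at least 1.3-fold higher (13.7%) and 1 was 1.3-fold lower (16.2%), with a median of 0.32. That 1 was DHX58, at a fold of 0.653 whose interval (0.379 to 1.11) held 1, while HELZ2 at 0.873 (0.810 to 0.940) and PARP10 at 0.845 (0.791 to 0.903) had intervals below 1. IFI16, a DNA sensor, had 507 and 610 counts in PC-3 and 0 and 147 in LNCaP, at least 49.9-fold higher in the LNCaP coculture. IFI16 and EPSTI1 counted as measured in LNCaP only through the coculture, where they were higher, and both are among the 10. Between the monocultures 22 of 30 were at least 2-fold lower in LNCaP (23.6% of all genes) and 1, DHX58, was at least 2-fold higher (22.1%).

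Genes associated with interferon gamma formed a further list. Of 11 measured in the PC-3 comparison, 3 were at least 1.3-fold higher (9.09% of all genes) and 7 were above 0, a share near the 50.8% of all genes, with a median log2 fold of 0.07. The highest was SECTM1, a secreted and membrane protein, with 888 and 1215 counts, and the lowest was GBP5, a guanylate-binding GTPase, with 35 and 26. In LNCaP 4 of 7 measured were at least 1.3-fold higher (13.7% of all genes) and 1 was 1.3-fold lower (16.2%), with a median of 0.39. Among the 4, GBP1 counted as measured only through the coculture, where it was higher. GBP3, with 993 and 1000 counts in PC-3, had 45 and 140 in LNCaP, a fold of 3.17 (2.25 to 4.54). CIITA, the activator of MHC class II genes, was the lowest in LNCaP with 38 and 28 counts.

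The sensor adaptors and induction factors past 1.3-fold were counted over 12 measured genes in either coculture comparison. In PC-3 2 of 12 were higher (9.09% of all genes) and none was lower (9.37%), with TLR3, the endosomal RNA receptor, highest at 52 and 76 counts and IRF5 lowest at 122 and 109. In LNCaP 3 of 12 were higher (13.7% of all genes) and 2 were lower (16.2%). STING1, the adaptor of DNA sensing, had 8 and 58 counts there, a fold of 7.38 (3.51 to 17.9), beside 385 and 421 in PC-3. It is among the 3 but counted as measured in LNCaP only through the coculture, where it was higher. IKBKE, a kinase that activates IRF3, had 134 and 81 counts in LNCaP and 195 and 278 in PC-3, so its folds were 0.615 (0.461 to 0.817) and 1.45 (1.20 to 1.75). Among the negative regulators, 1 of 7 was at least 1.3-fold higher in either line, a share near that of all genes (9.09% in PC-3 and 13.7% in LNCaP). In PC-3 it was SOCS1 with 25 and 33 counts, whose interval (0.776 to 2.36) held 1. In LNCaP it was SOCS3 with 2 and 34, which counted as measured there only through the coculture. SOCS3, the inhibitor of cytokine receptors, had 510 and 411 counts in PC-3.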

How the data were processed

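Bulk RNA from 4 libraries, 1 per group, was sequenced from TruSeq RNA v2 libraries, per the labels' protocols, a kit that does not mark strand. The table deposited by the authors holds estimated counts per gene symbol, unscaled. The submitters' processing notes name FastQC, STAR, Partek and hg38, whose roles, versions and annotation are not given in the sources used here. Values that were not whole (33.7% to 34.1% per library) were rounded.

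Counts were scaled by TMM (edgeR 4.0.16, R 4.3.3; factors 0.996 to 1.006) to CPM. Log2 folds used a prior count of 2. Ratios have exact conditional binomial 95% intervals, and differences of folds delta-method intervals (Python 3.11.15, scipy 1.17.1). These and the limit of 3 counts for a count of 0 cover counting error only, since the reads carry no molecular identifiers and are not independent molecules. No test or p-value was possible. Genes reaching 1 CPM in either library of a comparison were counted at 2-fold and 1.3-fold by log2 fold, with all genes as background. Transcript length and GC content came from GENCODE v29 (lowess span 0.3), positions and promoters from RefSeq, where DDX58 is listed as RIGI. Interval coverage was tested on simulated counts.

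All measured members could be named. Full values were due for the 2 most abundant per role, the 3 highest and 3 lowest folds among those with at least 50 counts, the IFITM genes and the chemokines, and from the pathway lists for every receptor and transducer, ligands above 3 counts and each list's extremes. Members, lists and this rule were chosen with earlier results of these data known. Alternatives were DESeq2 1.42.0 size factors, library totals, other filters and prior counts, the length correction, leaving out IFITM1, IFITM2 and IFITM3, bounds for genes at 0 and, chosen after seeing the data, values not rounded. The result of 1 gene of the transducer list is not reported here.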

Additional observations from a re-analysis of the deposited data

Results flagged for a closer look

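Among the 41 genes, IFITM2 was the only gene whose folds with fibroblasts lay on opposite sides of 1 in the 2 lines with both counting intervals clear of 1. It had 1578 and 1407 counts in the PC-3 monoculture and coculture, a fold of 0.908 (0.845 to 0.977), and 405 and 459 counts in LNCaP, a fold of 1.15 (1.01 to 1.32). The LNCaP log2 fold exceeded that of PC-3 by 0.344, and with 1 library per group the difference was not tested. After the correction for transcript length and GC content the PC-3 log2 fold was 0.06, so both lines were then above 0. IFITM2 has near-identical neighbours, IFITM1 and IFITM3, and how their reads were divided is not given in the sources used here.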

How the results depend on the processing

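No paired analysis was possible because each group had 1 library and the labels give no replicate numbers. With a filter of 5 CPM, genes past 2-fold in the PC-3 coculture were 0 of 39 (1 of 41 at 1 CPM, CXCL10). Those in the LNCaP coculture were 6 of 27 (14 of 38), and those past 1.3-fold there were 15 of 27 (24 of 38). Differences of log2 folds of at least 1 were 4 of 27 (10 of 38). Shares of all genes under this or other settings are not given, so these counts cannot be set against a background. In LNCaP this filter removed OAS1, OAS2, MX2, RSAD2, SAMD9L, IFI44L, BST2 and XAF1, all past 2-fold, and OASL, MX1 and CMPK2, which were not. The share past 2-fold in LNCaP thus fell as well, and it depends on genes with low counts. Without a filter 1 of 41 genes, CXCL11, was at least 1.3-fold lower in the LNCaP coculture. No other count of the 41 genes moved by more than 1.5 times, and the median log2 folds stayed between 0.42 and 0.44 in PC-3 and between 0.59 and 0.69 in LNCaP. The correction for transcript length and GC content reversed IFITM2, whose log2 fold in PC-3 was -0.14 before it and 0.0612 after it, and moved 16 other log2 folds of named genes beyond their counting intervals. Library totals put IFITM3 in PC-3 below 0, and DESeq2 size factors changed no sign of a measured gene. Depth limits the LNCaP folds: 7 of 41 genes had 3 counts or fewer in its monoculture.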

Other observations

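DHX58, which encodes the RNA sensor LGP2, was the exception in the second list of interferon-stimulated genes. It had 0 and 11 counts in the PC-3 monoculture and coculture and 39 and 25 in LNCaP. It lies at chr17:42101411-42112714 on GRCh38.p14, at 1 end of 9 consecutive genes of the table that had 0 counts in the PC-3 monoculture, up to position 42522579. STAT3 and STAT5B lie among them. In the LNCaP monoculture these 9 genes had 39 to 3422 counts, and in the PC-3 coculture 2 to 253. The genes of the table next to the run had 66 and 409 counts in the PC-3 monoculture.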
